A study of Mus musculus with 6 samples.

Results

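The mechanosensitive channels described here are the 2 Piezo genes, Piezo1 and Piezo2, and the Trp genes Trpv2, Trpv4, Trpc1, Trpc6 and Trpm7, measured by RNA sequencing in whole mouse aorta. These 7 genes, of 47643 in the count table, were chosen by name as stretch- and shear-sensing channels, with the EPO and Vehicle values of these libraries known. Their differences between the groups are therefore given as a description, with no p-value printed for them. The calls below only mark which of them passed a threshold set over all genes tested. The EPO group (n = 3 libraries) was the entire aorta of Apoe-/- mice given recombinant human erythropoietin (EPO), the hormone that drives red cell production, intraperitoneally at 5000 IU per kg per day for 4 weeks. The Vehicle group (n = 3 libraries) was the entire aorta of Apoe-/- mice given saline by the same route for the same 4 weeks. Both groups lack apolipoprotein E, a lipid carrier of the blood, and such mice develop raised cholesterol and atherosclerosis. Mice with intact Apoe were not analysed here. Age and sex are not given in the labels, nor whether each library is a separate animal, so the tests measure the spread between these libraries, which may be technical.

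Piezo proteins are large cation channels that open directly when the membrane is stretched. PIEZO1 is known in blood vessels as a sensor of flow in endothelial cells, where its opening lets calcium in, and it also acts in smooth muscle, red cells and macrophages. PIEZO2 is known above all from sensory neurons, where it serves touch and the sense of body position. The Trp channels are cation channels opened by lipids, heat, swelling or receptor signals as well as by force, and for several of them it is debated whether force opens the pore directly.

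Of the 7 channels, Piezo1 and Piezo2 were called higher in EPO aorta, Trpc1 was called lower, and Trpv2, Trpv4, Trpc6 and Trpm7 were not called. A call here is an adjusted p under 0.05 in the quasi-likelihood test of edgeR, adjusted by Benjamini-Hochberg over the 16522 genes tested, and all 7 channels were among them. The same test called 23.0% of all tested genes, 12.9% higher and 10.1% lower, so called genes are common in this comparison. The values of the EPO and Vehicle libraries did not overlap for 4 of the 7 channels (Piezo1, Piezo2, Trpv4 and Trpc1), against 43.8% of all tested genes. The median log2 fold change was 0.54 for the 7 channels and 0.01 for all genes tested, and that of the channels was 0.22 without EPO 1, 0.36 without Vehicle 1, 0.28 with EPO 3 alone and 0.29 when limma-voom weighted the samples.

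The promoter windows of the called channels are shown to place them in the genome and to give the letters near their start sites. RefSeq windows of 300 bases on GRCm38.p6, which run past the annotated start at their 3′ end, were found for 6 of the 7 channels, and Piezo2 is only named. Both sequences read 5′ to 3′ on the minus strand, the strand of both genes, and capitals mark the GC box GGGCGG, the core site of SP and KLF family factors, in either orientation. The Piezo1 window is chr8:122551280-122551579 and the Trpc1 window is chr9:95750299-95750598.
Piezo1: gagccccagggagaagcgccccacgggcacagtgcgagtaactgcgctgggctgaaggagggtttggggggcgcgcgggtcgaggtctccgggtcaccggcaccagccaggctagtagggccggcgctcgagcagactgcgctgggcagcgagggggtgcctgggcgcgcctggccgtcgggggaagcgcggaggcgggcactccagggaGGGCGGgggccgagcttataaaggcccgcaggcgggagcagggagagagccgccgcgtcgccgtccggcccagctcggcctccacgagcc
Trpc1: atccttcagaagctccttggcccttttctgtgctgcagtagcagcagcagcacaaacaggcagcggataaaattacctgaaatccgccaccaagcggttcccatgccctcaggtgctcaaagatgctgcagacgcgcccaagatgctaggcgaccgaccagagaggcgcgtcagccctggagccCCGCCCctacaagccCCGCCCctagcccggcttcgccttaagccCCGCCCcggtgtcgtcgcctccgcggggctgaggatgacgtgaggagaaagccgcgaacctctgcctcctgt

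The Piezo1 window was 75.0% G and C with 34 CpG dinucleotides and 1 GC box, and the Trpc1 window was 63.0% G and C with 22 CpG dinucleotides and 3 GC boxes. The median over 32544 mouse promoter windows of the same length, all outside chromosome 18, was 53.0% G and C. A GC box was held by 35.9% of them. The letters CACCC, the core bound by KLF factors, occurred once in the Piezo1 window and in none of the Trpc1 window, against 57.7% of all windows. Neither window held TTCNNNGAA, the spaced palindrome of STAT factors, which act below the EPO receptor, and 8.33% of all windows held it. Neither held ACATTCC, the site of TEAD factors, against 3.85% of all windows. Among the other channels, the Trpv4 window held 3 GC boxes and 5 CACCC matches, and the Trpc6 window held 1 CArG box, the site of serum response factor, which 1.64% of all windows held. Both strands were searched, the motifs were chosen after the expression values were known, and a match describes letters only.

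Piezo1 (ENSMUSG00000014444, GRCm38 chromosome 8, 122481698 to 122551329, minus strand) was measured at 191, 119 and 84.1 CPM (counts scaled to a common library size) in EPO 1, EPO 2 and EPO 3, against 52.3, 50.9 and 47.2 CPM in Vehicle 1, Vehicle 2 and Vehicle 3. Every EPO library lay above every Vehicle library, and the EPO libraries differed far more among themselves than the Vehicle libraries did. Mean levels were 131 ± 54.5 CPM in EPO aorta and 50.1 ± 2.62 CPM in Vehicle aorta (SD, n = 3 each), a log2 fold change of 1.39 (SE 0.28), or 2.62-fold higher. Without EPO 1 the log2 fold change was 1.01, with EPO 3 as the only EPO library it was 0.75, and without Vehicle 1 it was 1.39 and no longer called. Piezo1 shares 2441 bases of exon with Ctu2, a gene on the opposite strand, and the strand setting of the counting is not given in the sources used here. Ctu2 was measured at 16.5 ± 3.16 CPM in EPO aorta and 16.5 ± 1.94 CPM in Vehicle aorta, below Piezo1 in both groups.

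Piezo2 (ENSMUSG00000041482, chromosome 18, 63010213 to 63387183, minus strand) had the largest fold change of the 7 channels. It was measured at 42.8, 42.0 and 47.5 CPM in EPO 1 to EPO 3, against 8.73, 7.12 and 7.38 CPM in Vehicle 1 to Vehicle 3. All EPO libraries were high and close together, and all Vehicle libraries were low. Means were 44.1 ± 3.01 CPM in EPO aorta and 7.74 ± 0.868 CPM in Vehicle aorta, a log2 fold change of 2.51 (SE 0.14), or 5.69-fold higher. The call held when each library was left out in turn, and the log2 fold change stayed between 2.44 and 2.62 over the 17 alternative settings tried.

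**Figure D1:**
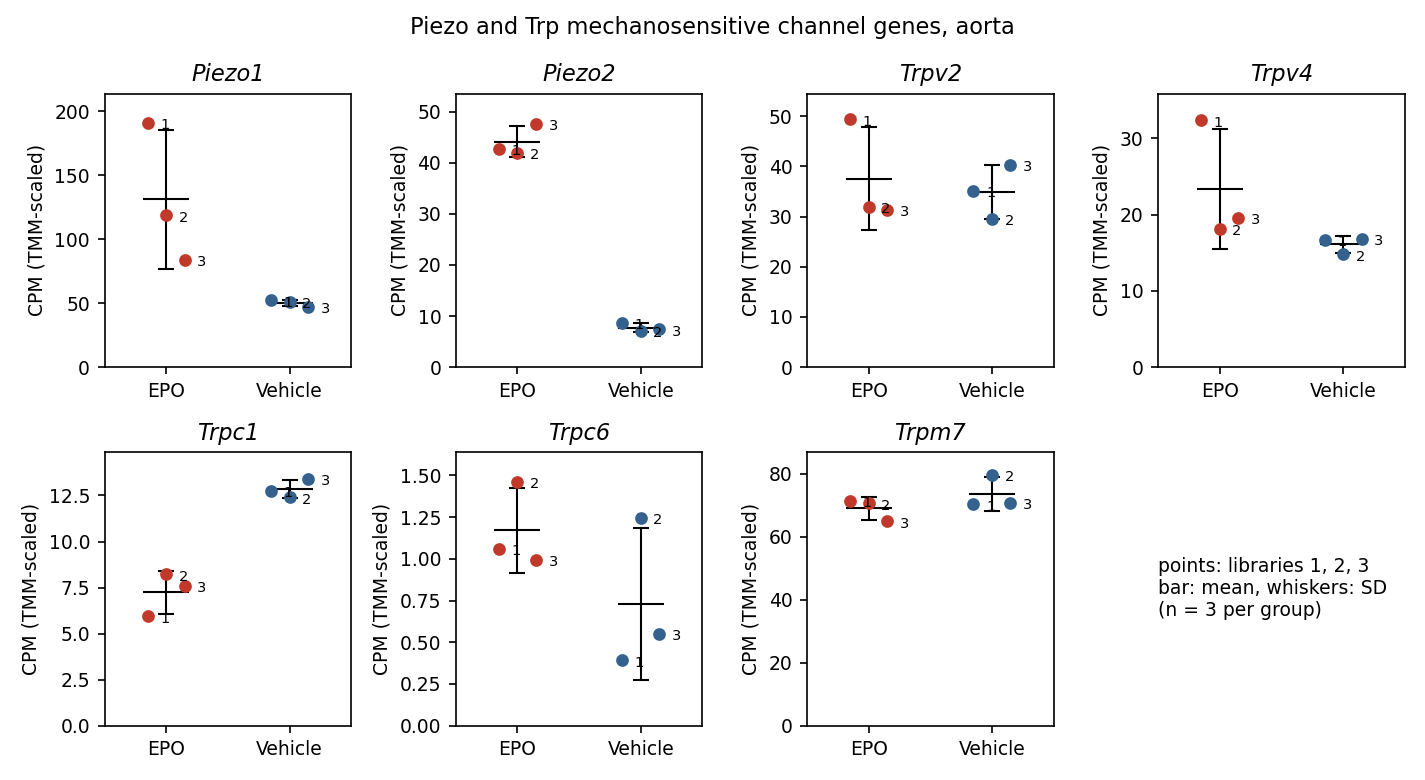
CPM of the 7 channels in each library, a panel per gene on a linear axis from 0, with EPO to the left of Vehicle, numbered points for libraries, a bar for the mean and whiskers for the SD (n = 3). Piezo1 spreads between 84.1 and 191 CPM in EPO aorta and between 47.2 and 52.3 CPM in Vehicle aorta, whereas the Piezo2 libraries lie close to their means of 44.1 and 7.74 CPM.

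Trpv4 and Trpv2 are calcium-permeable channels of the vanilloid subfamily. TRPV4 responds to swelling, warmth and lipid messengers and takes part in flow-evoked dilation through the endothelium. TRPV2 responds to membrane stretch in vascular smooth muscle and is abundant in macrophages. Trpv4 (ENSMUSG00000014158, chromosome 5, 114622152 to 114658421, minus strand) was measured at 32.3, 18.2 and 19.5 CPM in EPO 1 to EPO 3, against 16.6, 14.8 and 16.8 CPM in Vehicle 1 to Vehicle 3. The groups did not overlap, but EPO 2 and EPO 3 lay close above the Vehicle libraries while EPO 1 stood far above them. The log2 fold change was 0.54 (SE 0.23), which was not called, and without EPO 1 it was 0.22 (SE 0.12).

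Trpv2 (ENSMUSG00000018507, chromosome 11, 62574486 to 62600515, plus strand) was measured at 49.4, 31.9 and 31.4 CPM in EPO 1 to EPO 3, against 35.2, 29.5 and 40.3 CPM in Vehicle 1 to Vehicle 3. EPO 1 was the highest library and the other EPO libraries lay within the Vehicle range. Means were 37.6 ± 10.2 CPM in EPO aorta and 35.0 ± 5.38 CPM in Vehicle aorta, with a log2 fold change of 0.10 (SE 0.21), smaller than its error. Its sign changed in 4 settings, to -0.16 without EPO 1, -0.03 without Vehicle 2, -0.10 in limma-voom with sample weights and -0.15 with EPO 3 alone.

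Trpc1 and Trpc6 belong to the canonical subfamily, which conducts calcium downstream of receptors that activate phospholipase C. TRPC1 joins other subunits and is tied to refilling of calcium stores, and TRPC6 is opened by diacylglycerol and takes part in smooth muscle tone. Trpc1 (ENSMUSG00000032839, chromosome 9, 95705082 to 95750375, minus strand) was the only channel of the 7 called lower. It was measured at 5.94, 8.22 and 7.58 CPM in EPO 1 to EPO 3, against 12.7, 12.4 and 13.4 CPM in Vehicle 1 to Vehicle 3. Every EPO library lay below every Vehicle library, and EPO 1 was the lowest. Means were 7.24 ± 1.17 CPM in EPO aorta and 12.8 ± 0.502 CPM in Vehicle aorta, a log2 fold change of -0.83 (SE 0.17), or 1.77-fold lower. The call was lost without Vehicle 1, Vehicle 2 or Vehicle 3 and with EPO 3 alone, while the log2 fold change stayed between -0.92 and -0.71.

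Trpc6 (ENSMUSG00000031997, chromosome 9, 8544142 to 8680741, plus strand) was the lowest of the 7 channels, with 38, 43 and 33 counts in EPO 1 to EPO 3, against 9, 32 and 16 counts in Vehicle 1 to Vehicle 3. These are 1.06, 1.46 and 0.992 CPM in EPO aorta, against 0.391, 1.24 and 0.552 CPM in Vehicle aorta. Vehicle 2 lay inside the EPO range and the groups overlapped. The log2 fold change of 0.67 had an SE of 0.47 and was not called. It was 0.36 without Vehicle 1, 0.44 with EPO 3 alone and 1.28 without Vehicle 2, and was called in none of these fits.

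Trpm7 is a channel fused to a kinase, which carries magnesium, zinc and calcium and is present in most cell types. It (ENSMUSG00000027365, chromosome 2, 126791565 to 126876230, minus strand) was measured at 71.4, 70.6 and 64.9 CPM in EPO 1 to EPO 3, against 70.3, 79.7 and 70.8 CPM in Vehicle 1 to Vehicle 3. The groups overlapped, and the means of 69.0 ± 3.58 CPM in EPO aorta and 73.6 ± 5.31 CPM in Vehicle aorta gave a log2 fold change of -0.09 (SE 0.11). Its values were among the steadiest of the 7 channels, and its log2 fold change stayed between -0.18 and -0.05 over the settings tried.

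**Figure D2:**
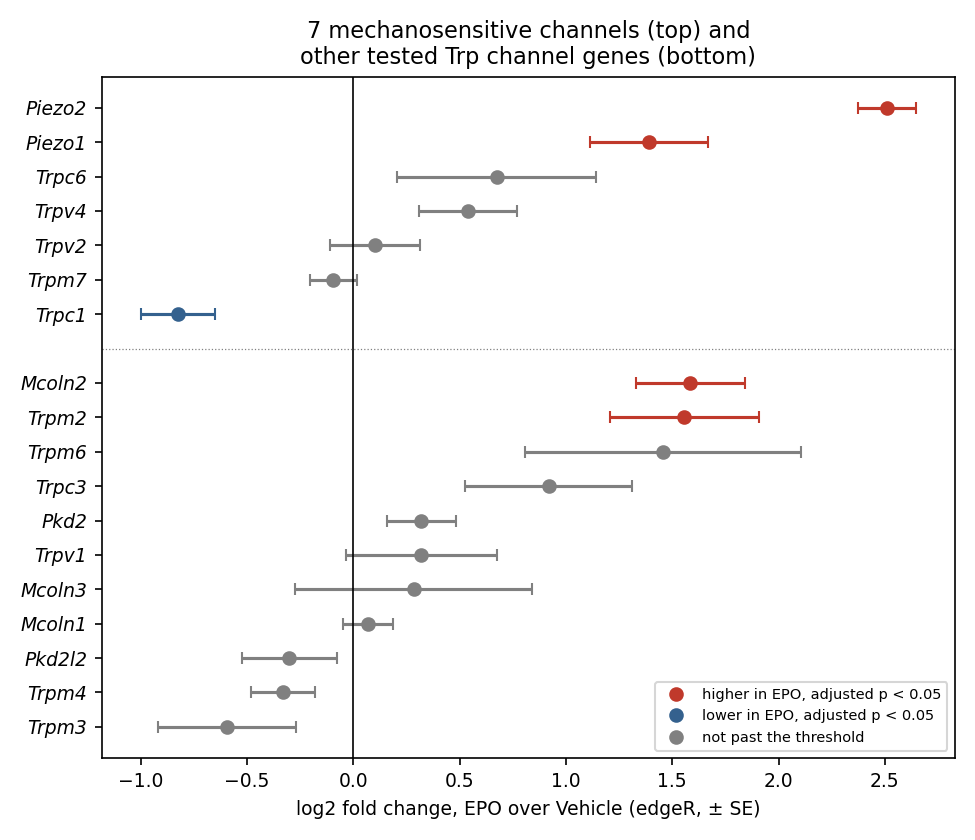
Log2 fold change of EPO over Vehicle with its SE, from the edgeR fit across all genes, for the 7 channels above and the 11 other tested Trp genes below, with called genes in red (higher) or blue (lower) and the rest in grey. Among the channels Piezo2 lies at 2.51, Piezo1 at 1.39 and Trpc1 at -0.83, and among the other Trp genes Mcoln2 (1.59) and Trpm2 (1.56) are called.

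Levels of different genes were compared as CPM per kilobase of exon, taking the union of each gene's annotated exons. In EPO aorta the order from high to low was Piezo1 (13.2 ± 5.48), Trpv2 (8.38 ± 2.28), Trpm7 (6.10 ± 0.316), Trpv4 (5.73 ± 1.92), Piezo2 (2.57 ± 0.175), Trpc1 (0.902 ± 0.146) and Trpc6 (0.231 ± 0.0499 CPM per kilobase, SD, n = 3). Neighbours whose libraries overlapped were Piezo1 with Trpv2 and Trpm7 with Trpv4. In Vehicle aorta the order was Trpv2 (7.80 ± 1.20), Trpm7 (6.51 ± 0.469), Piezo1 (5.05 ± 0.264), Trpv4 (3.94 ± 0.277), Trpc1 (1.60 ± 0.0625), Piezo2 (0.451 ± 0.0506) and Trpc6 (0.144 ± 0.0895 CPM per kilobase), and the overlapping neighbours were Trpv2 and Trpm7. Piezo2 and Trpc1 changed places: Piezo2 lay above Trpc1 in all 3 EPO libraries and below it in all 3 Vehicle libraries. With the length of the longest transcript in place of the exon union, Trpm7 lay above Trpv2 in Vehicle aorta, at 10.4 against 9.53 CPM per kilobase, and the order in EPO aorta was the same.

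The summed level of the 7 channels was 47.9, 33.5 and 29.9 CPM per kilobase in EPO 1 to EPO 3, against 25.6, 24.6 and 26.3 CPM per kilobase in Vehicle 1 to Vehicle 3. Piezo1 made up 40.1, 35.6 and 28.3% of that sum in the EPO libraries, against 20.6, 20.8 and 18.0% in the Vehicle libraries. Within the Piezo pair, the Piezo1 share of the summed level was 88.5, 83.0 and 75.3% in EPO 1 to EPO 3, against 91.2, 92.5 and 91.7% in Vehicle 1 to Vehicle 3. Piezo1 was thus the more abundant Piezo transcript in every library, with a larger Piezo2 share in the EPO libraries. Within the vanilloid pair, Trpv2 made up 59.7 ± 1.70% of the level in EPO aorta and 66.3 ± 2.07% in Vehicle aorta.

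Among the 30 Piezo and Trp genes, Pkd2, a polycystin channel of cilia and the endoplasmic reticulum, had the highest mean level in both groups, at 15.5 ± 3.05 CPM per kilobase in EPO aorta and 12.4 ± 0.688 in Vehicle aorta, although Piezo1 lay above it in EPO 1. Piezo1 ranked 2 in EPO aorta and 5 in Vehicle aorta, and Piezo2 ranked 9 in EPO aorta and 12 in Vehicle aorta. Trpc1 ranked 12 in EPO aorta and 8 in Vehicle aorta, while Trpv4 ranked 6 in both groups.

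**Figure D3:**
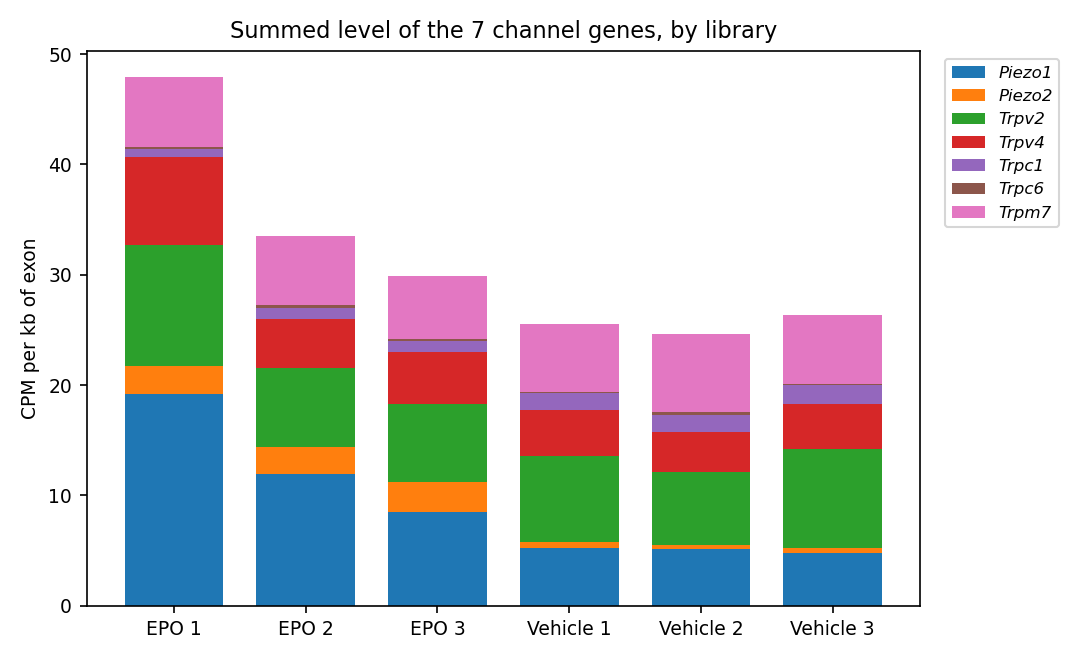
Levels of the 7 channels in CPM per kilobase of exon, stacked for each library, with EPO libraries to the left of Vehicle libraries. The Piezo1 layer at the bottom takes 28.3 to 40.1% of the stack in EPO aorta and 18.0 to 20.8% in Vehicle aorta.

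Likeness of profile was measured as the root-mean-square difference (RMS) of log2 CPM over the 6 libraries after each gene's mean was subtracted. A small value means a closely parallel profile. Profiles were not scaled by their spread, so genes that vary little also lie close by this measure. The tested genes most like Piezo1 were Plxnd1, a semaphorin receptor of endothelial cells (RMS 0.0742), and Notch1, a signalling receptor (RMS 0.0981). Both repeated its order within the EPO group, with Plxnd1 at 469, 340 and 239 CPM in EPO 1 to EPO 3, against 138, 133 and 128 CPM in Vehicle 1 to Vehicle 3. The genes most like Piezo2 were Fap, a surface protease of activated fibroblasts (RMS 0.189), and Mmp14, a membrane-bound matrix metalloproteinase (RMS 0.190). Fap was measured at 69.4, 84.0 and 75.7 CPM in EPO 1 to EPO 3, against 11.9, 14.0 and 12.9 CPM in Vehicle 1 to Vehicle 3.

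Trpv2 lay closest to Baiap3 (RMS 0.0518) and Cnpy3, a chaperone of Toll-like receptors (RMS 0.0548), and Trpv4 to Yif1b (RMS 0.0395) and Mcrip1 (RMS 0.0465). Trpc1 lay closest to Camta1 (RMS 0.0310) and Bbs4, a subunit of the BBSome of cilia (RMS 0.0361). Trpc6 lay closest to Cry1, a clock repressor (RMS 0.163), and H2-M9 (RMS 0.181), and Trpm7 to Immp1l (RMS 0.0190) and Ltn1, a ubiquitin ligase of stalled ribosomes (RMS 0.0259). Among the channels themselves, Trpv2 and Trpv4 were the closest pair (RMS 0.226) and Piezo2 and Trpc1 the farthest apart (RMS 1.68).

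Markers of other cell types moved with the groups, and in bulk tissue fewer cells of a type and less RNA per cell cannot be told apart. All 8 smooth muscle markers were lower, and their summed level was 7394 to 9901 CPM in EPO libraries and 20898 to 29864 CPM in Vehicle libraries. Of 8 endothelial markers Cdh5 was higher and Pecam1 lower, with sums of 1139.65 to 1599.55 CPM in EPO libraries and 1445 to 1618 CPM in Vehicle libraries. Of 8 macrophage markers edgeR called Fcgr1 and Adgre1 higher. All 8 were higher at an unadjusted edgeR p under 0.05, 6 were called higher in DESeq2 and 2 in limma-voom. The macrophage sums were 1598 to 4262 CPM in EPO libraries and 772 to 1351 CPM in Vehicle libraries. Of 8 fibroblast markers Col1a1, Col1a2 and Lum were higher and the other 5 were not called, at a log2 fold change of 0.40 for Pdgfra, 0.47 for Dpt, -0.13 for Dcn, -0.28 for Pi16 and -0.07 for Cd34. The fibroblast sums were 42767 to 53067 CPM in EPO libraries and 9838 to 11954 CPM in Vehicle libraries. Most of them came from the collagens, with Col1a1 at a mean of 25745 CPM in EPO aorta and 3444 CPM in Vehicle aorta, and Col1a2 at 16566 CPM in EPO aorta and 3919.66 CPM in Vehicle aorta. The 7 tested skeletal muscle markers were all higher, with sums of 295 to 2286 CPM in EPO libraries and 5.87 to 18.7 CPM in Vehicle libraries, and EPO 3 was the EPO library with the least. Of 8 white adipocyte markers edgeR called 5 lower. All 8 were lower at an unadjusted edgeR p under 0.05, 8 were called lower in DESeq2 and 5 in limma-voom. The adipocyte sums were 1606 to 1717 CPM in EPO libraries and 2461 to 5779.59 CPM in Vehicle libraries. Of 7 tested red cell precursor markers edgeR called 0, with 0 at an unadjusted p under 0.05 and 0 in DESeq2 and limma-voom. The calls of Cdh5 and Adgre1 were lost without Vehicle 1, that of Pecam1 without EPO 2, EPO 3 or any Vehicle library, and that of Lum in each of the 6 fits that left out a library. Total counts ran from 28798632 to 38502430 in EPO libraries and from 23278649 to 27904322 in Vehicle libraries.

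Piezo1 was then set against these lists. The mean log2 level of the endothelial markers above the Vehicle mean was 0.25, 0.04 and -0.18 in EPO 1 to EPO 3. It averages markers that went both ways, among them Cdh5 at a log2 fold change of 0.87 and Pecam1 at -0.57. Piezo1 stood 1.68, 1.21 and 0.92 log2 units above that mean in EPO 1 to EPO 3, against 0.06, 0.09 and -0.15 in Vehicle 1 to Vehicle 3, with no overlap. Relative to the macrophage markers it stood at 0.14, 0.60 and -0.01 in EPO 1 to EPO 3, against 0.53, -0.20 and -0.33 in Vehicle 1 to Vehicle 3, and these overlapped. Relative to the fibroblast markers it stood at 1.04, 0.52 and -0.07 in EPO 1 to EPO 3, against 0.08, -0.05 and -0.03 in Vehicle 1 to Vehicle 3, and these overlapped too. The macrophage marker mean was highest in EPO 1, the EPO library with the most Piezo1 (1.78, 0.64 and 0.76 log2 units above the Vehicle mean in EPO 1 to EPO 3). The part of the endothelial, macrophage and fibroblast lists in the Piezo1 result was not tested.

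Relative to the mean of the fibroblast markers, Piezo2 stood at 1.57, 1.71 and 1.80 log2 units in EPO 1 to EPO 3, against 0.19, -0.19 and -0.01 in Vehicle 1 to Vehicle 3, with no overlap. Within that list Col1a1 had a larger log2 fold change than Piezo2 (2.90 against 2.51). Of the 6 nerve and Schwann cell markers tested, edgeR called 0, with 3 lower and 0 higher at an unadjusted p under 0.05, 3 lower in DESeq2 and 0 in limma-voom. The nerve marker sum was 49.9 to 70.1 CPM in EPO libraries and 56.6 to 166 CPM in Vehicle libraries, where Vehicle 3 stood apart at 166 CPM and Vehicle 1 (57.1 CPM) and Vehicle 2 (56.6 CPM) lay inside the EPO range. Scn10a, the sodium channel of pain-sensing neurons, had 0, 1 and 2 counts in EPO 1 to EPO 3 and 1, 3 and 0 counts in Vehicle 1 to Vehicle 3. Trpc1 fell by less than the smooth muscle markers, and relative to their mean it stood at 0.82, 0.95 and 0.54 log2 units in EPO 1 to EPO 3, against -0.19, 0.15 and 0.04 in Vehicle 1 to Vehicle 3. Trpc1 relative to the endothelial, macrophage, fibroblast and skeletal muscle lists also did not overlap between the groups. Relative to the white adipocyte, red cell precursor and nerve lists it overlapped. For the nerve list it stood at -0.48, 0.52 and -0.09 log2 units in EPO 1 to EPO 3. In Vehicle 1 to Vehicle 3 it stood at 0.42, 0.65 and -1.06. The part of any marker list in the Trpc1 and Piezo2 results was not tested.

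**Figure D4:**
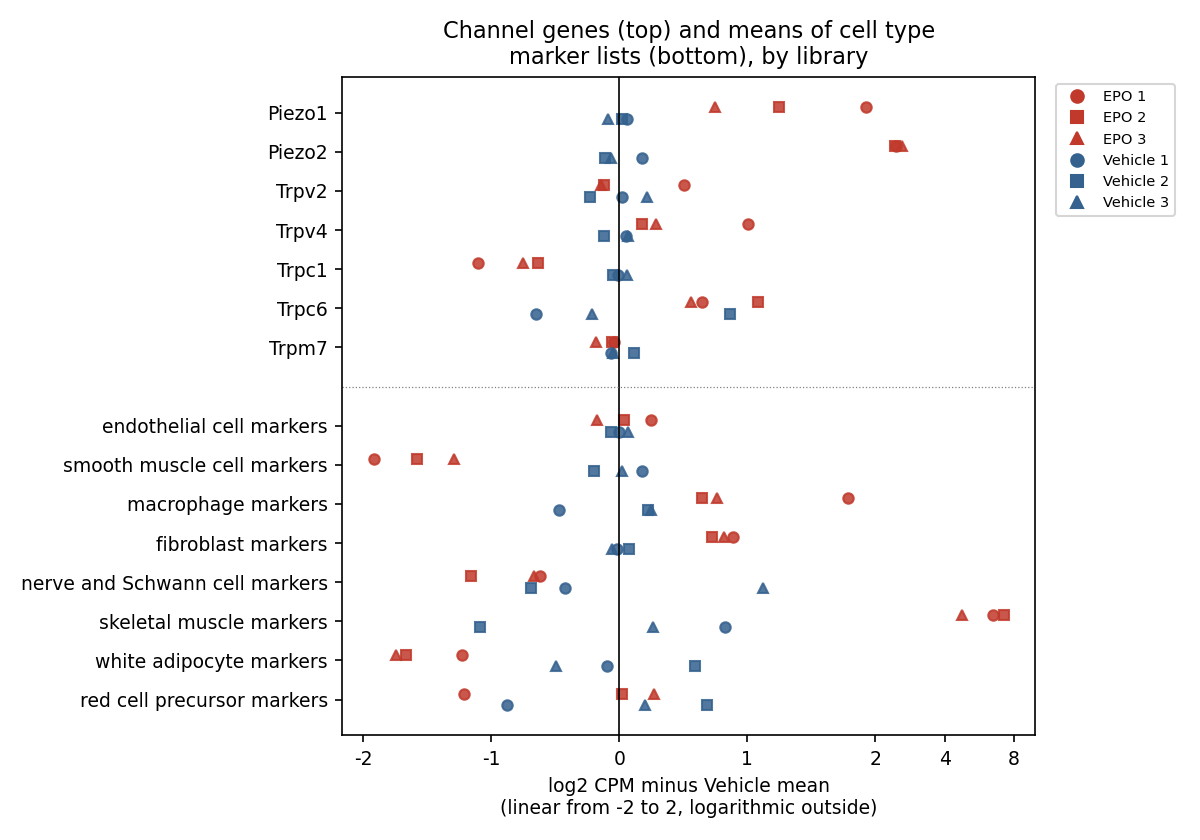
Log2 CPM minus the Vehicle mean for the 7 channels above and for the means of 8 cell type marker lists below, with EPO libraries in red, Vehicle libraries in blue and a shape for each library number, on an axis that is linear from -2 to 2 and logarithmic outside. In the EPO libraries Piezo1 lies between 0.75 and 1.93, Piezo2 between 2.43 and 2.61, and the smooth muscle list between -1.92 and -1.30.

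Related genes, among them other Trp genes and other channels gated by force or swelling, were taken as 7 lists of 83 genes. Of these 64 were tested, 13 were called higher and 10 lower. That is 35.9% of the tested ones, against 23.0% of all tested genes, and their median log2 fold change was 0.09. The lists were written with earlier results of these data known. Adjusted p-values below are edgeR's, over all genes tested.

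Of the 23 other Trp genes 11 were tested and 2 passed, both higher. Mcoln2, a lysosomal cation channel of immune cells, averaged 10.2 ± 2.32 CPM in EPO aorta and 3.38 ± 0.746 CPM in Vehicle aorta, a log2 fold change of 1.59 (edgeR adjusted p = 0.00616). Trpm2, a channel opened by oxidative stress, averaged 8.78 ± 2.21 CPM in EPO aorta and 2.97 ± 1.32 CPM in Vehicle aorta, a log2 fold change of 1.56 (edgeR adjusted p = 0.0192), and its call was lost without EPO 3, Vehicle 1 or Vehicle 2. The 12 untested Trp genes had at most 17 counts in any library.

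Of the 13 other channels gated by force or swelling 7 were tested and 2 passed, both lower. Tmem63a, a stretch-gated channel of the OSCA family, averaged 55.4 ± 4.63 CPM in EPO aorta and 82.7 ± 11.8 CPM in Vehicle aorta, a log2 fold change of -0.58 (edgeR adjusted p = 0.0258). Lrrc8a, the required subunit of the volume-regulated anion channel, averaged 27.2 ± 6.77 CPM in EPO aorta and 41.7 ± 1.67 CPM in Vehicle aorta, a log2 fold change of -0.62 (edgeR adjusted p = 0.0497). Each of these calls was lost in 4 of the 6 fits that left out a library, Tmem63a without EPO 2, EPO 3, Vehicle 1 or Vehicle 3 and Lrrc8a without EPO 2 or any Vehicle library. Lrrc8a shares 2853 bases of exon with Gm28035, a gene model on the same strand, so its counts are uncertain.

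The Piezo regulators included the MyoD family inhibitors, proteins that bind Piezo channels and slow their inactivation. Of 4 regulators tested 2 passed, both higher. Atp2a2, also in this list, was lower in every EPO library than in every Vehicle library. Its log2 fold change of -0.64 (SE 0.24, edgeR adjusted p = 0.0946) was not called, and DESeq2 called 1 regulator lower. Mdfi averaged 13.0 ± 3.51 CPM in EPO aorta and 3.40 ± 0.248 CPM in Vehicle aorta, a log2 fold change of 1.93 (SE 0.24, edgeR adjusted p = 0.00306). Mdfic averaged 107 ± 13.8 CPM in EPO aorta and 53.7 ± 2.25 CPM in Vehicle aorta, a log2 fold change of 0.998 (SE 0.13, edgeR adjusted p = 0.00332). Both calls held when any library was left out.

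Of 9 genes for calcium release and store refilling, all tested, Orai2 and Itpr3 were higher and Itpr1, Cav1 and Stim1 lower. Itpr1, the IP3 receptor prominent in smooth muscle, averaged 77.0 ± 3.48 CPM in EPO aorta and 147 ± 14.7 CPM in Vehicle aorta, a log2 fold change of -0.93 (edgeR adjusted p = 0.00335). Cav1, the caveola protein that anchors TRPC1 at the membrane, averaged 348 ± 39.3 CPM in EPO aorta and 778 ± 73.0 CPM in Vehicle aorta, a log2 fold change of -1.16 (edgeR adjusted p = 0.00374). Orai2, a pore subunit of the store-operated channel, had a log2 fold change of 1.05 (edgeR adjusted p = 0.00485) and Itpr3 of 0.92 (edgeR adjusted p = 0.0373). Stim1, the calcium sensor of the store, had a log2 fold change of -0.44 (edgeR adjusted p = 0.0489), and its call was lost when any library was left out. The Itpr3 call was lost without Vehicle 1, Vehicle 2 or Vehicle 3. Smooth muscle markers were lower in the same libraries, and their part in the Itpr1 and Cav1 values was not tested.

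Of 9 genes of the Gq and phospholipase C step, which makes the lipids and IP3 that open TRPC channels, Plcb2 and Plcg2 were higher and Plcb4 and Gna11 lower. Plcb2, an isoform of blood cells, had a log2 fold change of 1.32 (edgeR adjusted p = 0.00894) and Plcg2, also of blood cells, of 1.17 (edgeR adjusted p = 0.00902). Plcb4 averaged 82.2 ± 21.1 CPM in EPO aorta and 229 ± 17.7 CPM in Vehicle aorta, a log2 fold change of -1.48 (edgeR adjusted p = 0.00379). Gna11, a Gq family subunit, had a log2 fold change of -0.46 (edgeR adjusted p = 0.0398), which was lost without EPO 2, EPO 3 or any Vehicle library.

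Of 11 genes of the calcineurin and NFAT pathway, through which calcium entry reaches transcription, 3 were higher and 1 lower. Nfatc1 had a log2 fold change of 0.77 (edgeR adjusted p = 0.0135), Nfatc4 of 0.72 (edgeR adjusted p = 0.0241), and Ppp3ca, a catalytic subunit of calcineurin, of 0.51 (edgeR adjusted p = 0.0300). Rcan2, a calcineurin inhibitor, averaged 95.5 ± 27.0 CPM in EPO aorta and 292 ± 53.5 CPM in Vehicle aorta, a log2 fold change of -1.61 (edgeR adjusted p = 0.00511). The Rcan2 call held with each library left out in turn. The Nfatc1 call was lost without Vehicle 1, the Ppp3ca call without EPO 2 or any Vehicle library, and the Nfatc4 call without EPO 2, EPO 3 or any Vehicle library.

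Of 13 genes that endothelial cells adjust to shear, 2 were higher and 2 lower. Kdr, a VEGF receptor, averaged 75.6 ± 14.0 CPM in EPO aorta and 37.7 ± 9.20 CPM in Vehicle aorta, a log2 fold change of 1.003 (edgeR adjusted p = 0.0173). Mapk7, a kinase of the flow response, had a log2 fold change of 0.72 (edgeR adjusted p = 0.0386). Adm, the vasodilator adrenomedullin, averaged 10.5 ± 2.33 CPM in EPO aorta and 27.4 ± 3.96 CPM in Vehicle aorta, a log2 fold change of -1.38 (edgeR adjusted p = 0.00462). Edn1, the constrictor endothelin-1, had a log2 fold change of -1.23 (edgeR adjusted p = 0.00975). The Kdr call was lost without Vehicle 1, and the Mapk7 call without EPO 1, EPO 3 or any Vehicle library. Klf2, a transcription factor switched on by flow, was measured at 537, 101 and 104 CPM in EPO 1 to EPO 3. In Vehicle 1 to Vehicle 3 it was measured at 116, 91.6 and 90.0 CPM. Klf2 stood high in EPO 1 alone, and EPO 2 and EPO 3 lay within the Vehicle range. It missed the threshold, at a log2 fold change of 1.32 (SE 0.63, edgeR adjusted p = 0.173).

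**Figure D5:**
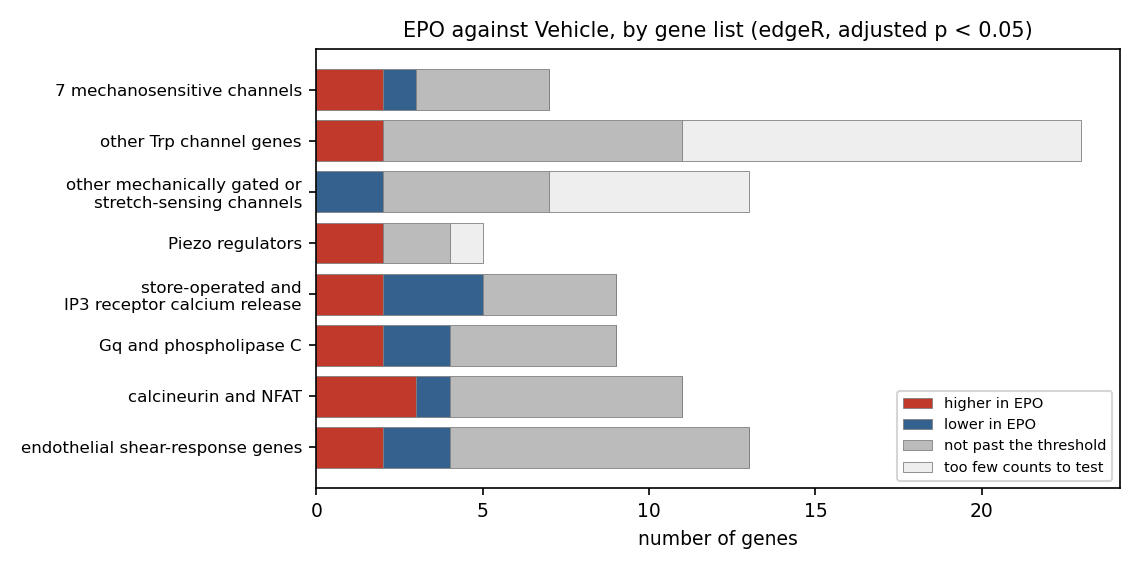
Number of genes called higher (red), called lower (blue), not past the threshold or with too few counts to test, in the 7 channels and in each of the 7 related lists. The Trp list holds 12 genes with too few counts, and the store-operated and IP3 receptor list has 5 called genes of 9.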

How the data were processed

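The deposited values are whole-number counts per Ensembl gene, not normalized by the authors, as checked on the values (47643 genes, 6 columns). Per the submitters' processing notes, CASAVA 1.8 made base calls and TopHat2 2.0.6 aligned reads to mm10. Per the labels' protocols, libraries were made with the NEBNext Ultra kit and read as paired ends on a HiSeq instrument. Which counter, strand setting and annotation were used is not given in the sources used here. Columns abbreviated Con were read as Vehicle, and that Con 1, 2 and 3 are Vehicle 1, 2 and 3 was assumed from the numbers. GENCODE M21 (GRCm38) gave symbols for 47224 IDs and none for 419.

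In R 4.3.3, edgeR 4.0.16 (filterByExpr, TMM, quasi-likelihood test, two-sided, group as the only term) tested 16522 genes with Benjamini-Hochberg adjustment. Log2 CPM used a prior count of 2. The SE given with an edgeR log2 fold change was that change without its sign, divided by the square root of the test's F statistic. The procedure was tested on simulated data.

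Members, lists, motifs and tests were chosen with earlier results of these data known. Named were all members, and up to 3 called genes per list and direction with any needed to complete a count of 5 or fewer. Excepted were the smooth muscle, skeletal muscle and adipocyte marker lists, from which no gene was named. Also named were the 2 genes of most alike profile per member (mean of at least 1 CPM). Ctu2, Pkd2, Scn10a, Klf2, Atp2a2, Trpc2 and Egfl7 were chosen after their values were seen. Exons shared with genes on the opposite strand leave counts uncertain for Piezo1, Itpr1, Itpr3, Edn1, Mapk7 and Tmem63a, among others. Exons shared on the same strand do so for Lrrc8a, Trpm2, Trpc2 and the endothelial marker Egfl7, among others. Alternatives were other scalings, filters and tools (DESeq2 1.42.0, limma 3.58.1), a replicate block, another threshold, removal of abundant genes, and libraries left out.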

Additional observations from a re-analysis of the deposited data

How the results depend on the processing

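The 7 channels' directions held in every alternative except that of Trpv2, which reversed to -0.16 without EPO 1, -0.03 without Vehicle 2, -0.15 with EPO 3 alone and -0.10 in limma-voom with sample weights, and lay between -0.16 and 0.22 when each library was left out. When each library was left out in turn, the genes called numbered 936 to 2265 higher and 699 to 2016 lower. The channels called then numbered 1 to 2 higher and 0 to 1 lower, and the related genes called 6 to 14 higher and 6 to 12 lower. The channels called lower fell to 0 without Vehicle 1, Vehicle 2 or Vehicle 3, and those called higher to 1 without Vehicle 1. With EPO 3 alone, which was then assumed to vary like the Vehicle libraries, 1085 genes were called higher and 463 lower, the channels called lower numbered 0, and the related genes called numbered 4 higher and 6 lower. Mcoln2, Plcb2, Edn1 and Fcgr1 lost their calls in that fit alone of those tried. With the replicate block 1630 genes were called higher and 1254 lower, and the channels called were 2 higher and 1 lower. It ended the calls of Itpr3, Stim1, Gna11, Ppp3ca, Pecam1, Adgre1 and Lum. Limma-voom ended those of Itpr3 and Stim1, library size alone those of Lrrc8a and Stim1, no filter those of Stim1 and Gna11, and removal of haemoglobin and mitochondrial genes that of Lrrc8a. Deviations of same-numbered libraries from their group means correlated at -0.0088, -0.0098 and 0.127. Those of differently numbered libraries correlated at -0.101 to 0.12. Deviations within a group cancel out, so these correlations cannot decide whether the libraries were paired. The Vehicle numbers were themselves assumed from the column names. Why these counts moved was not tested, though each fit that left out a library had fewer samples. Few counts limit what can be said of Trpc6 and the 12 untested Trp genes. Of these, Trpc2 had 0 counts in every library and shares 2803 bases of exon with Xntrpc on the same strand. Why the counts of these genes were low was not tested.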
